A study of Mus musculus with 7 samples.

Results

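The genes described are 6 secreted chemokines that CD8 T cells make, Ccl1, Ccl3, Ccl4, Ccl5, Ccl9 and Xcl1, taken by symbol from the 53656 gene rows of the count tables. Messenger RNA was sequenced from OT1 cells, which are CD8 T cells with a transgenic receptor for an ovalbumin peptide, sorted by CD8 and CD45.1 out of B16-OVA-GP61 tumours, a mouse melanoma line that carries ovalbumin and the GP61 epitope. In 3 libraries the tumours also held SMARTA cells, CD4 T cells whose transgenic receptor recognises GP61, and in 4 libraries they did not. The comparison addresses what CD4 T cells do to tumour-specific CD8 T cells, which is the question in the title of the series. Every library comes from OT1 cells in this one tumour line, and strain, age, cell numbers, time of harvest and whether the libraries of a group are separate animals are not given in the sources used here, so each p-value reflects variation among these libraries alone, and that variation may be technical.

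Libraries held 38092722 to 49438357 counts with SMARTA and 41341343 to 48572380 without. Summed transcripts of 10 CD8 T cell markers were at 12344 to 15905 CPM (counts scaled to the size of the library) with SMARTA and at 9577 to 12524 CPM without, while Cd4 was at 2.29 to 8.48 CPM with SMARTA and at 0.65 to 6.57 CPM without. Replicate 1 with SMARTA stood apart by 5061 CPM of erythroid transcripts, against 10.00 and 239 CPM in the other 2 libraries with SMARTA and 33.0 to 220.3 CPM in those without. Replicates 1 and 2 without SMARTA held most of the neutrophil transcripts.

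Chemokines are small secreted proteins that bind G protein-coupled receptors on leukocytes and draw those cells along a gradient. CD8 T cells that meet antigen make Ccl3, Ccl4, Ccl1 and Xcl1 transcripts within hours of receptor engagement, whereas Ccl5 transcript accumulates late and persists in effector and memory cells. Ccl3, Ccl4 and Ccl5 attract T cells and myeloid cells, Ccl9 is a mouse ligand of Ccr1, Ccl1 is the ligand of Ccr8, and Xcl1 attracts cross-presenting dendritic cells that carry Xcr1. Macrophages and other myeloid cells also make several of them, Ccl9 and Ccl3 among these.

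Upstream sequences are shown for the 4 of the 6 chemokines that matched by symbol in the RefSeq table (build GRCm38.p6). Each is the 250 bases before the annotated start. All 4 are among the 5 chemokines that fell with SMARTA. Ccl4 and Ccl5 matched no entry, so these windows cannot be compared with that of Ccl5. The part of these sequences in the fall was not tested. Capitals mark matches, on either strand, to any of the motifs listed after the sequences.
Ccl3, chr11:83649379-83649628, minus strand: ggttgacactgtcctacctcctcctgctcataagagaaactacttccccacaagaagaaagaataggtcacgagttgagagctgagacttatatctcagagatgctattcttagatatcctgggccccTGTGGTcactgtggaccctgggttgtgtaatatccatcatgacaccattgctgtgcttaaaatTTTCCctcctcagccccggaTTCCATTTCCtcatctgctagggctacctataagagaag
Ccl9, chr11:83578637-83578886, minus strand: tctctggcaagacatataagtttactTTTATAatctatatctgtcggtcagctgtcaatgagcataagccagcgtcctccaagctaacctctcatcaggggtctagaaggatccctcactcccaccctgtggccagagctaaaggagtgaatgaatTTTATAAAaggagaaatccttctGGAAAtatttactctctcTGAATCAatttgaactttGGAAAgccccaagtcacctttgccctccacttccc
Ccl1, chr11:82179813-82180062, minus strand: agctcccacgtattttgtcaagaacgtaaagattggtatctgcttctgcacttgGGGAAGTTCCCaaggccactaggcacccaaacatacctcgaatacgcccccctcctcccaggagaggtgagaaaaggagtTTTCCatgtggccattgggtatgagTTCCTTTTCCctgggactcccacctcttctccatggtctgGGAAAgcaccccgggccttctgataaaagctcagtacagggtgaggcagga
Xcl1, chr1:164935523-164935772, minus strand: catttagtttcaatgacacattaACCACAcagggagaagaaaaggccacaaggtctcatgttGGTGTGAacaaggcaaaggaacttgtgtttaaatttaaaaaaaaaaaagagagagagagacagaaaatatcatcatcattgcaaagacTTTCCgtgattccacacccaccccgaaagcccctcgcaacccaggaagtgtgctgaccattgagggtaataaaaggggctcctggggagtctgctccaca

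The motifs were the NFAT core GGAAA, AP-1 (TGANTCA), NF-kB (GGGANNTTC), CRE (TGACGTCA), T-box (GGTGTGA), the interferon-stimulated response element (GAAANNGAA), RUNX (TGTGGT) and the TATA box (TATAAA), where N is any base and a capital run can hold overlapping matches. NFAT, AP-1 and NF-kB are the factors that carry the antigen receptor signal to the nucleus. GGAAA was present in all 4 windows, once in Xcl1, in 2 places each in Ccl3 and Ccl9 and in 3 in Ccl1; it was also present in 55.6% of all 32851 windows of this length in the table. The NF-kB string matched Ccl1 alone of the 4, with 2 overlapping matches on opposite strands that begin 196 and 194 bases before the start, against 3.23% of all windows. AP-1 matched Ccl9, 53 bases before the start (6.75% of all windows), and the T-box string matched Xcl1, 188 bases before it (3.33%). The response element string overlapped an NFAT match in Ccl3 and in Ccl1 (7.13% of all windows), RUNX matched in Ccl3 and Xcl1 (14%), and TATAAA matched in 3 places in Ccl9 (12.4%). TGACGTCA was in none of the 4 windows and in 1.55% of all. A match describes letters and not a bound site.

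OT1 cells from tumours with SMARTA cells held less transcript of 5 of the 6 chemokines, and the difference in the other, Ccl5, did not pass the test. The 5 that fell were 8.72-fold (Ccl4) to 20.2-fold (Ccl9) lower with SMARTA, and in each of them every library with SMARTA lay below every library without. Of all 15896 genes tested, 1.63% were called lower by edgeR (quasi-likelihood F test, threshold 0.05 after Benjamini-Hochberg adjustment), 3.15% were called in either direction, 10.5% were lower with no overlap between the groups and 8.73% higher with none. The median log2 fold change over the 6 chemokines was −3.78, beside −0.00 over all genes tested. The 6 chemokines were chosen with earlier results of these data known, so these contrasts describe them and are not a test of the set. In bulk RNA, fewer cells that make a transcript and less of it per cell cannot be told apart. The calls depended on single libraries. All 5 stayed called without replicate 1 with SMARTA and without replicate 2 or 3 lacking it, where 397, 241 and 48 of all genes were called lower. Without replicate 1 lacking SMARTA 3 were called (Ccl4, Ccl9 and Xcl1), where 32 of all genes were lower. None was called without replicate 2 or 3 with SMARTA or replicate 4 lacking it, where 13, 22 and 7 of all genes were lower. In those last 3 fits the edgeR adjusted p of the 5 genes lay between 0.0508 and 0.0714, all 5 had an unadjusted p under 0.05, and none changed direction in any fit.

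**Figure D1:**
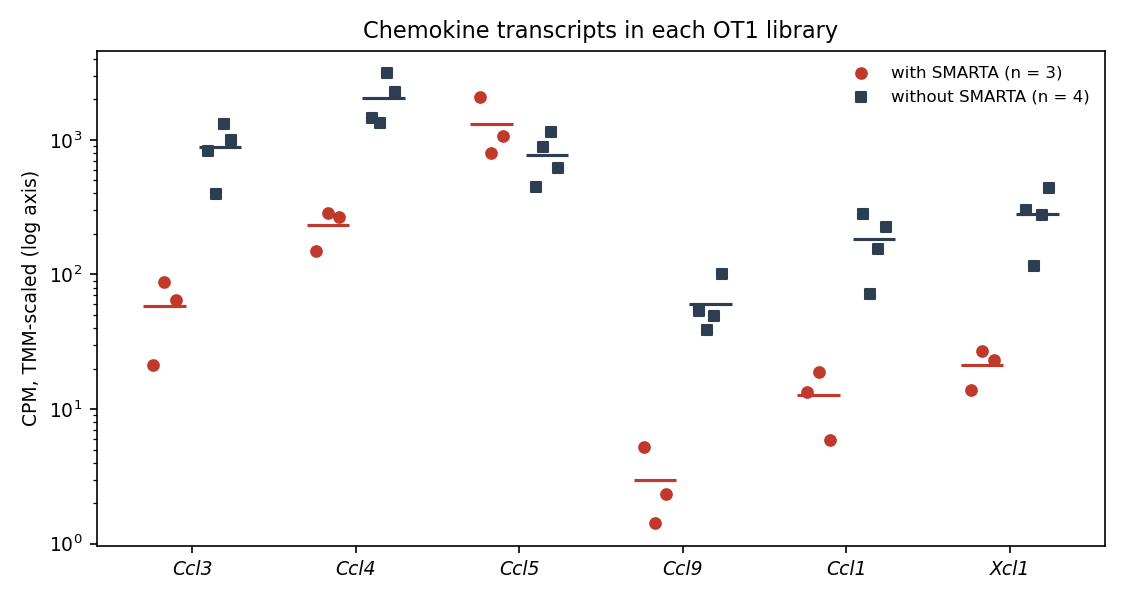
Level of each chemokine transcript in CPM scaled by TMM factors (log axis) in 3 libraries with SMARTA (circles) and 4 without (squares); horizontal bars are group means. For Ccl3, Ccl4, Ccl9, Ccl1 and Xcl1 all circles lie below all squares, and for Ccl5 the groups overlap.

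Ccl3 and Ccl4, inflammatory chemokines that recruit T cells and myeloid cells, lie next to each other on chromosome 11 (GRCm38), Ccl3 at 83647844 to 83649355 on the minus strand and Ccl4 at 83662584 to 83664683 on the plus strand. Ccl3 was at 21.3, 88.2 and 65.0 CPM in replicates 1, 2 and 3 with SMARTA, against 830.2, 393, 1311 and 995 CPM in replicates 1 to 4 without. The lowest library without SMARTA, replicate 2, was still 4.46-fold above the highest with SMARTA. Its mean was 58.2 ± 33.9 CPM with SMARTA and 883 ± 382 CPM without (SD, n = 3 and 4), with a log2 fold change of −3.92 ± 0.59 (SE; edgeR adjusted p = 0.0184). Ccl4 was at 149, 287 and 266 CPM in replicates 1, 2 and 3 with SMARTA, against 1447, 1332, 3123 and 2258 CPM in replicates 1 to 4 without. The libraries of each group lay closer together than for Ccl3, within 1.92-fold with SMARTA and 2.34-fold without. Ccl4 averaged 234 ± 74.1 CPM with SMARTA and 2039.7 ± 831 CPM without (SD, n = 3 and 4; log2 fold change −3.12 ± 0.39, SE; edgeR adjusted p = 0.0141). Both genes were lowest in replicate 1 with SMARTA and highest in replicate 3 without. Per transcript length, the ratio of Ccl4 to Ccl3 was 3.77 to 8.12 with SMARTA and 2.02 to 3.93 without, and the groups overlapped in replicate 2 of each.

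Ccl5, the T cell chemokine stored and made by effector and memory cells, lies on the same chromosome (83525778 to 83530518, minus strand) in the same cluster. It was at 2075, 797 and 1061 CPM in replicates 1, 2 and 3 with SMARTA, against 448, 885, 1152 and 616 CPM in replicates 1 to 4 without. Replicate 1 with SMARTA was the highest of all, and the other 2 libraries with SMARTA lay inside the range of those without. The log2 fold change was 0.76 ± 0.40 (SE), with a 95% interval from −0.14 to 1.66 (edgeR adjusted p = 0.358; unadjusted p = 0.0893), and it shrank to 0.25 without replicate 1 with SMARTA. It was 0.06 with that library and replicate 1 lacking SMARTA both left out, a choice made after the data were seen. The interval allows a slight decrease or an increase of up to 1.66 log2 units. It does not overlap the interval of any other member, whose upper bounds ran from −3.04 (Ccl9) to −2.24 (Ccl4).

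Ccl9, the Ccr1 ligand of mice, lies at 83572919 to 83578636 between Ccl5 and Ccl3 and was the least abundant member per length. It was at 5.22, 1.42 and 2.32 CPM in replicates 1, 2 and 3 with SMARTA, from 246, 59 and 79 counts, against 53.9, 38.6, 49.3 and 100.03 CPM in replicates 1 to 4 without. The gap between the groups was the widest of the 6, since the lowest library without SMARTA exceeded the highest with SMARTA 7.41-fold. The mean was 2.99 ± 1.98 CPM with SMARTA and 60.5 ± 27.1 CPM without (SD, n = 3 and 4; log2 fold change −4.33 ± 0.57, SE; edgeR adjusted p = 0.0155). Ccl6, a chemokine of macrophages and neutrophils encoded next to Ccl9, was at 20.2, 2.65 and 1.00 CPM in replicates 1, 2 and 3 with SMARTA, against 14.6, 5.98, 10.8 and 8.94 CPM in replicates 1 to 4 without. Both Ccl9 and Ccl6 were highest among the libraries with SMARTA in replicate 1. Without that library the log2 fold change of Ccl9 was −5.04 (edgeR adjusted p = 0.00508) and that of Ccl6 −2.46 (edgeR adjusted p = 0.0478; 0.0478 to 0.986 over all alternatives), while with all libraries Ccl6 stood at −0.34 ± 0.86 (SE; edgeR adjusted p = 0.882).

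Ccl1, the ligand of Ccr8, was at 13.4, 19.0 and 5.91 CPM in replicates 1, 2 and 3 with SMARTA, against 279.7, 71.3, 155.6 and 225.6 CPM in replicates 1 to 4 without. It spread by 3.21-fold within the libraries with SMARTA and by 3.92-fold within those without, and the groups were 3.75-fold apart at their nearest libraries. The mean was 12.8 ± 6.56 CPM with SMARTA and 183 ± 90.2 CPM without (SD, n = 3 and 4; log2 fold change −3.84 ± 0.58, SE; edgeR adjusted p = 0.0184). In the annotation, Ccl1 covers chromosome 11 from 82176657 to 82305690 because a readthrough transcript adds distant exons to the short coding gene. Its 2369 counted bases therefore understate its level per length.

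Xcl1, the ligand that brings Xcr1-positive dendritic cells to CD8 T cells, is the only member off chromosome 11, at 164931644 to 164935527 of chromosome 1 on the minus strand. It was at 13.9, 26.96 and 23.02 CPM in replicates 1, 2 and 3 with SMARTA, against 299, 115, 277 and 437 CPM in replicates 1 to 4 without. The libraries with SMARTA lay within 1.93-fold of each other, and replicate 2 without SMARTA was the lowest of its group, as it was for Ccl3, Ccl4, Ccl9 and Ccl1. Xcl1 averaged 21.3 ± 6.67 CPM with SMARTA and 282 ± 132 CPM without (SD, n = 3 and 4; log2 fold change −3.73 ± 0.48, SE; edgeR adjusted p = 0.0155). Its first exon shares 98 bases with RP23-152I6.3, a gene model on the opposite strand, and reads that fell on both were left out because counting ignored strand. That model was at 0.70, 2.34 and 3.88 CPM in replicates 1, 2 and 3 with SMARTA, against 14.9, 8.27, 12.1 and 23.4 CPM in replicates 1 to 4 without (log2 fold change −2.67, edgeR adjusted p = 0.0564), and other settings that called it are given with the neighbours.

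To set the members beside each other, counts were divided by counted length and scaled to the same sum in every library (TPM, a unit that corrects for length). The 6 genes summed to 5117 ± 1279 TPM with SMARTA and to 17144 ± 5794 TPM without (SD, n = 3 and 4). With SMARTA the order of mean levels was Ccl5 (3766 ± 1794 TPM), Ccl4 (1000.5 ± 356), Ccl3 (217 ± 136), Xcl1 (115 ± 41.6), Ccl1 (15.4 ± 8.64) and Ccl9 (2.69 ± 1.69). Without SMARTA it was Ccl4 (9318 ± 3619 TPM), Ccl3 (3457 ± 1430), Ccl5 (2457 ± 984), Xcl1 (1622 ± 747), Ccl1 (231 ± 109) and Ccl9 (60.05 ± 26.8). With SMARTA, Ccl3 and Xcl1 were neighbours whose levels overlapped (74.9 to 345 and 71.8 to 155 TPM). Without SMARTA the levels of Ccl3 (1654 to 5059 TPM), Ccl5 (1364 to 3548 TPM) and Xcl1 (709 to 2536 TPM) overlapped. With the length of the longest coding transcript of a later GENCODE release (M21), chosen after the data were seen, the order without SMARTA turned for Ccl5 (3193 ± 1282 TPM) and Ccl3 (2487 ± 1027 TPM). Ccl1 was then at 42.98 ± 24.1 TPM with SMARTA and 645 ± 304 TPM without, and the order with SMARTA stayed as given. Ccl4 was the 4th to 9th highest of all gene rows in the libraries without SMARTA and the 97th to 243rd in those with SMARTA. Ccl5 was the 9th to 37th with SMARTA and the 17th to 102nd without.

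The make-up of this sum differed between the groups. Ccl5 made up 88.2%, 57.7% and 67.4% of the 6-gene TPM sum in replicates 1, 2 and 3 with SMARTA, against 10.5%, 24.8%, 14.5% and 10.1% in replicates 1 to 4 without. Ccl4 held 21.3 ± 10.8% of it with SMARTA and 53.7 ± 3.33% without, Ccl3 4.77 ± 3.45% and 19.9 ± 4.39%, and Xcl1 2.45 ± 1.26% and 9.61 ± 3.97% (SD, n = 3 and 4). Ccl5 was thus the largest part in every library with SMARTA and Ccl4 in every library without. Shares of a sum are not independent of each other, and no test was made on them.

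**Figure D2:**
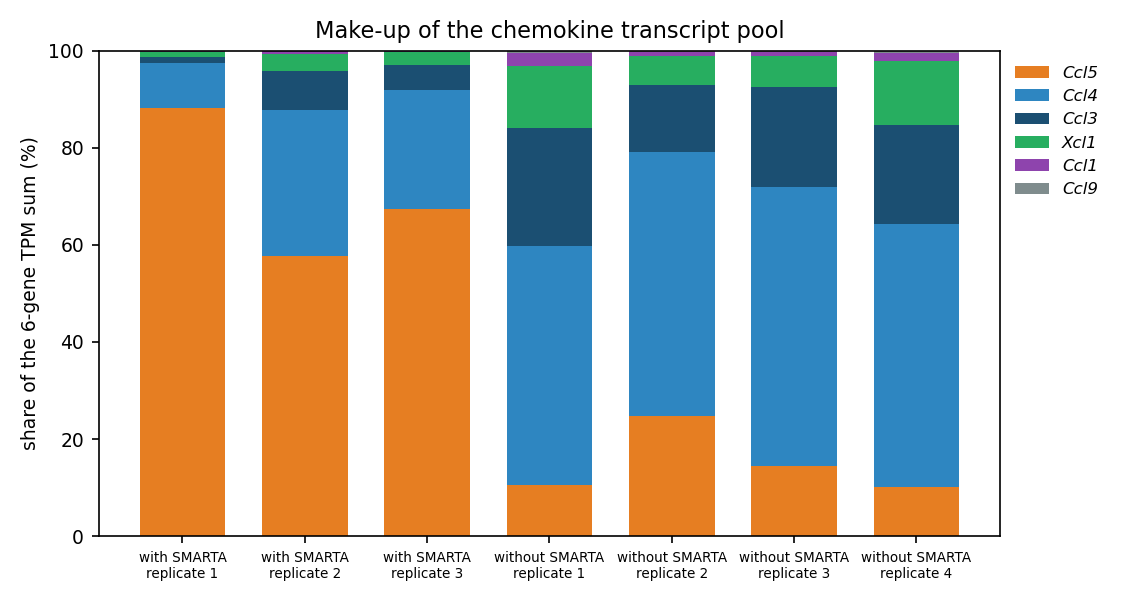
Share of each chemokine in the sum of the 6 genes' TPM (percent), one stacked bar per library, the 3 with SMARTA on the left and the 4 without on the right. The Ccl5 part spans 57.7% to 88.2% with SMARTA and 10.1% to 24.8% without.

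Ccr8, the receptor of Ccl1, was called lower. Its level was 26.2, 7.88 and 24.4 CPM in replicates 1, 2 and 3 with SMARTA, against 102.6, 119.8, 83.1 and 128 CPM in replicates 1 to 4 without (−2.47 ± 0.42 log2 units, SE; edgeR adjusted p = 0.0261). It was lower in every library with SMARTA than in any without, and it was called in 3 of the 7 fits that leave out 1 library. Ccr1, which binds Ccl9, Ccl3 and Ccl5, averaged 12.2 ± 5.20 CPM with SMARTA and 5.64 ± 2.68 CPM without (SD, n = 3 and 4; edgeR adjusted p = 0.225). Ccr3 was at 0.82 to 12.6 CPM with SMARTA and 0.71 to 1.91 CPM without (edgeR adjusted p = 0.238). Xcr1, the receptor of Xcl1, was at 16.96 to 31.4 CPM with SMARTA and 12.2 to 25.9 CPM without, with a log2 fold change of 0.31 ± 0.33 (SE; edgeR adjusted p = 0.692).

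Of 22 chemokine receptors 19 were tested, with a median log2 fold change of 0.31. DESeq2 called 4 higher and 4 lower, where it called 822 of all 15896 genes higher and 919 lower. With edgeR 3 were called higher and 2 lower, beside 1.52% and 1.63% of all genes tested. Those higher with SMARTA were Ccr2, Ccr4 and Cxcr3, receptors of memory and effector T cells. Cxcr3 was at 1288 ± 437 CPM with SMARTA and 439.7 ± 108 CPM without (SD, n = 3 and 4; log2 fold change 1.55; edgeR adjusted p = 0.0263). Ccr4 was at 6.16 ± 2.23 CPM with SMARTA and 0.58 ± 0.17 CPM without (3.41; edgeR adjusted p = 0.0156). Ccr8 and the fractalkine receptor Cx3cr1 were lower, Cx3cr1 at 24.4 ± 9.23 CPM with SMARTA and 137.7 ± 24.8 CPM without (−2.49; edgeR adjusted p = 0.0141). With 1 library left out 0 to 4 receptors were called higher and 0 to 3 lower; none was called higher without replicate 3 with SMARTA, and none in either direction without replicate 4 lacking SMARTA.

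Of 32 other secreted chemokines 17 were tested and edgeR with TMM scaling and its default filter called none, as did limma-voom. DESeq2 and edgeR with a stricter filter called 1 higher (Cxcl10) and 1 lower (Ppbp), and edgeR with no filter called Cxcl10. At an unadjusted p under 0.05 there were 1 higher and 1 lower, where 1460 of all 15896 genes were higher and 1490 lower, and the median log2 fold change was −0.34. Cxcl10, a ligand of Cxcr3 induced by interferon, was at 9.96, 23.9 and 34.4 CPM in replicates 1, 2 and 3 with SMARTA, against 7.98, 7.55, 4.49 and 4.11 CPM in replicates 1 to 4 without. The groups did not overlap, and the log2 fold change of 1.91 ± 0.45 (SE) did not pass (edgeR adjusted p = 0.0595), although it did without replicate 1 with SMARTA (2.24, edgeR adjusted p = 0.0167; 0.00113 to 0.486 over all alternatives). Ppbp, a platelet chemokine, was at 1.05 ± 1.19 CPM with SMARTA and 7.63 ± 4.30 CPM without (SD, n = 3 and 4; edgeR adjusted p = 0.111). Without replicate 1 with SMARTA, 2 of these chemokines were called lower, and in no other fit that leaves out 1 library was any.

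**Figure D3:**
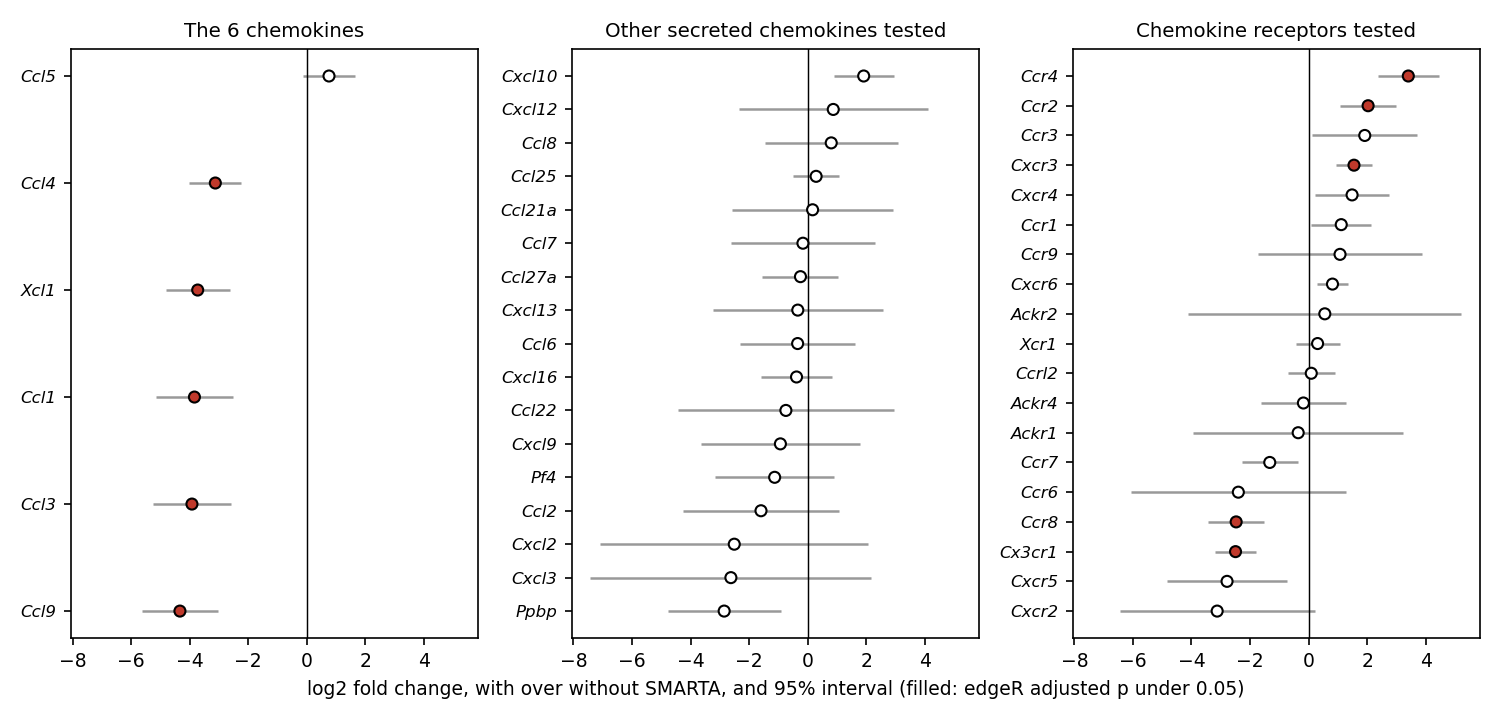
Log2 fold changes with over without SMARTA for the 6 chemokines, the 17 other secreted chemokines and the 19 chemokine receptors that were tested; lines are 95% intervals and filled points passed edgeR at an adjusted p under 0.05. In the left panel 5 points lie between −4.33 and −3.12 with intervals clear of 0, and Ccl5 lies at 0.76 with an interval that crosses it.

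Of 52 gene rows within 250000 bases of a member 17 were tested, and edgeR with TMM scaling and its default filter called none. The model RP23-152I6.3 is annotated antisense to Xcl1 and spans it, and counting ignored strand, so the strand of its reads is not known. It was alone in having an unadjusted p under 0.05. It was called lower by limma-voom (adjusted p = 0.0426), by DESeq2 (0.000119) and by edgeR with upper-quartile scaling (0.0488), library totals (0.0439), no filter (0.0313) or the stricter filter (0.0192). The median log2 fold change of the neighbours was −0.16. Between Ccl9 and Ccl3 lies Ccl6, described above, and the starts of Ccl3 and Ccl4 are 13.2 kb apart. Heatr9, next to Ccl5, was at 8.13 ± 1.48 CPM with SMARTA and 4.30 ± 1.92 CPM without (SD, n = 3 and 4; log2 fold change 0.92; edgeR adjusted p = 0.277). A gene model on the plus strand, from 83582056 to 83623693 between Ccl9 and Ccl3, had −1.88 (edgeR adjusted p = 0.298) at levels under 1 CPM. The well expressed genes Sft2d2, within 250000 bases of Xcl1, and Ap2b1 and Heatr6, on either side of the cluster on chromosome 11, had log2 fold changes from −0.065 to 0.22. Those of Taf15, Wfdc17, Wfdc21, Ccl2, Ccl7, Ccl8, Dpt, Snord7, RP23-381B19.7 and RP23-249K18.3 ran from −1.60 to 0.80, with edgeR adjusted p of 0.533 or more. Leaving out replicate 1 with SMARTA gave 2 lower neighbours, and leaving out any other single library gave none.

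**Figure D4:**
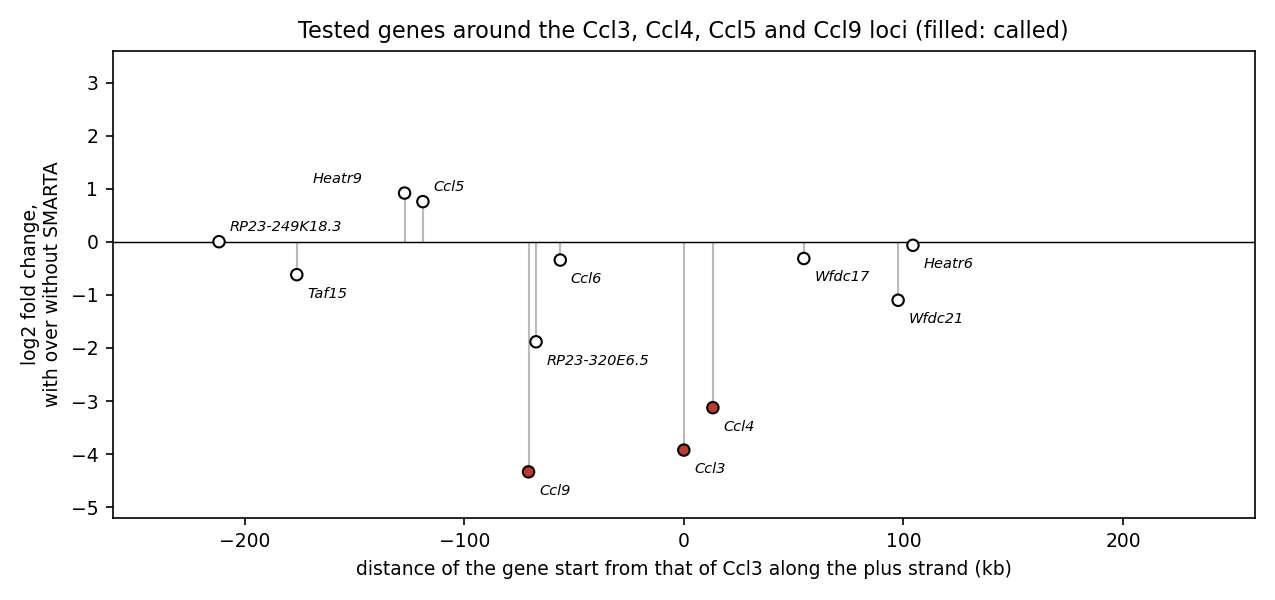
Log2 fold change with over without SMARTA of the tested genes around Ccl3, plotted by the distance of each gene's start from that of Ccl3 (kb); filled points passed edgeR at an adjusted p under 0.05. Ccl9, Ccl3 and Ccl4 are the filled points, while Ccl6 at −0.34 lies between Ccl9 and Ccl3, and Ccl5 at 0.76 is 119 kb from Ccl3.

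Of 35 tested transcription factors of T cells, not all of them inducers of chemokines, 4 were called lower and none higher by edgeR. Over all genes tested 1.63% were called lower and 1.52% higher. The median log2 fold change of the factors was −0.40, with 15 positive and 20 negative. At an unadjusted edgeR p under 0.05 there were 3 higher and 9 lower, where 1460 of all 15896 genes were higher and 1490 lower. No NFAT or NF-kB gene was among the 4 called, and Fosl1 was the only AP-1 gene. DESeq2 called 9 lower and 1 higher, where it called 919 of all 15896 genes lower and 822 higher. With the stricter filter edgeR called 7 lower, where 491 of all 9386 genes were called lower. Irf8 and Irf4, interferon regulatory factors made after receptor signalling, were at 47.5 ± 19.0 and 38.6 ± 19.0 CPM with SMARTA, against 401 ± 241 and 178 ± 67.5 CPM without (SD, n = 3 and 4; edgeR adjusted p = 0.0282 and 0.0424). The orphan nuclear receptor Nr4a2 was at 10.6 ± 3.79 CPM with SMARTA and 71.8 ± 46.1 CPM without (log2 fold change −2.76; edgeR adjusted p = 0.0339). Fosl1, a partner of Jun in AP-1, was at 0, 0.07 and 0.12 CPM with SMARTA and at 1.64 to 7.82 CPM without (edgeR adjusted p = 0.0261), from 0, 3 and 4 counts with SMARTA. It was not called by limma-voom (adjusted p = 0.109). Each of the 4 was called in 2 or 3 of the 7 fits that leave out 1 library, and none of the factors was without replicate 2 or 3 with SMARTA or replicate 4 lacking it. Of 14 cytokines that T cells secrete with chemokines 2 were called lower and none higher by edgeR, with a median of −1.34. At an unadjusted edgeR p under 0.05, 8 of these cytokines were lower and 0 higher, where 1490 of all 15896 genes were lower and 1460 higher. Lower calls were 5 with upper-quartile scaling, no filter or the stricter filter, 6 with library totals and 8 with DESeq2. Over all genes the lower calls in these settings, in the same order, were 294, 319, 491, 398 and 919. Those called with all libraries and TMM scaling were osteopontin, Spp1, which macrophages also make, at 7.37 ± 3.02 CPM with SMARTA and 134 ± 83.4 CPM without, and LIGHT, Tnfsf14, at 16.04 ± 3.73 CPM with SMARTA and 54.7 ± 13.6 CPM without (SD, n = 3 and 4; edgeR adjusted p = 0.0175 and 0.0207). No cytokine of this list was called without replicate 2 or 3 with SMARTA or replicate 4 lacking it.

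Factors that control chemokine messenger RNA after transcription and the secretory machinery were examined next. Of all genes tested, 3.15% were called by edgeR in either direction. None of 12 tested decay and stability factors was called by edgeR or limma-voom. DESeq2 called 1 lower, where it called 919 of all 15896 genes lower. At an unadjusted edgeR p under 0.05 there were 1 higher and 3 lower, where 1460 of all genes were higher and 1490 lower. Khsrp, which promotes decay of AU-rich transcripts, had the smallest p in this list, at 21.2 ± 5.12 CPM with SMARTA and 39.8 ± 8.19 CPM without (SD, n = 3 and 4; edgeR adjusted p = 0.114). Auh, an AU-rich RNA-binding enzyme, stood at 0.66 on the log2 scale (edgeR adjusted p = 0.194). Of 12 tested genes of granule storage and secretion 1 was called, Rab3d, a GTPase of secretory vesicles, higher with SMARTA at 106 ± 26.7 CPM against 41.2 ± 5.03 CPM without (SD, n = 3 and 4; log2 fold change 1.36; edgeR adjusted p = 0.0252). DESeq2 called 2 of them higher, where it called 822 of all genes higher. Rab3d was called in 3 of the 7 fits that leave out 1 library.

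Likeness between profiles was measured as the root mean square difference in log2 CPM over the 7 libraries, each gene centred on its own mean. Among the 6 chemokines the nearest pair was Ccl3 and Xcl1 (0.47), followed by Ccl4 and Xcl1 (0.52), Ccl1 and Xcl1 (0.59) and Ccl3 and Ccl4 (0.61). Ccl9 lay 0.89 to 1.17 from these 4, and Ccl5 lay 2.03 to 2.64 from all others. Of 7886 other genes whose log2 CPM averaged 3 or more, Spp1 was nearest to Xcl1 (0.38) and to Ccl1 (0.48). Next were the mitotic ubiquitin-conjugating enzyme gene Ube2c for Xcl1 (0.48) and Ubash3b, a phosphatase of receptor signalling, for Ccl1 (0.63). Nearest to Ccl3 were cyclin B2, Ccnb2 (0.52), and the G protein regulator Rgs16 (0.54), and to Ccl4 the ribonucleotide reductase subunit Rrm2 (0.32) and the membrane protein gene Gpm6b (0.34). Proenkephalin, Penk (0.66), and Cd83 (0.76) were nearest to Ccl9, and Bcl9l (0.22) and Cerk (0.23) to Ccl5. The libraries and the group difference are shared by all these genes.

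Markers of myeloid cells, which also make some members, were present in both groups. None of 13 tested macrophage and monocyte markers was called, and their sum was 252 to 382.6 CPM with SMARTA and 154 to 341 CPM without (two-sided exact permutation test over 35 splits, p = 0.486; adjusted over 12 marker lists 0.648). The protease gene Ctss made up 67.7% of it with SMARTA and 52.3% without. The sum of the other macrophage markers was 246, 43.5 and 42.3 CPM in replicates 1, 2 and 3 with SMARTA, against 135.6, 55.3, 209.6 and 114 CPM in replicates 1 to 4 without. No marker of this list was at 0 in all libraries, and 5 of 13 were at 0 in some. The macrophage growth factor receptor gene Csf1r was at 22.7, 1.30 and 0.06 CPM in replicates 1, 2 and 3 with SMARTA and at 3.48 to 11.2 CPM without. In replicate 1 with SMARTA, where Csf1r was highest of all, Ccl9 was at 5.22 CPM, below every library without SMARTA. In replicates 2 and 3 with SMARTA, where Csf1r lay below every library without, Ccl9 was lowest, at 1.42 and 2.32 CPM. The part of these cells in the fall of Ccl9 was not tested.

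Neutrophil markers summed to 0.87 to 3.90 CPM with SMARTA and to 81.8, 29.4, 3.80 and 5.51 CPM in replicates 1 to 4 without (exact permutation p = 0.2, adjusted 0.343). None of 6 tested was called, and Elane was at 0 in all 7 libraries. Among the libraries without SMARTA, replicate 1, with the most neutrophil transcript, had the highest Ccl1 and the second highest Xcl1 and Ccl9. Replicate 2, with the second most, had the lowest Ccl1, Ccl3, Ccl4, Ccl9 and Xcl1. Replicates 3 and 4, with the least, had the highest Ccl3 and Ccl4, and replicate 4 had the highest Xcl1 and Ccl9. The part of neutrophils in these levels was not tested. Mast cell and basophil markers summed to 10.6 to 24.0 CPM with SMARTA and to 14.0 to 56.3 CPM without (exact permutation p = 0.0857, adjusted 0.257), of which Kit made up 62.5% with SMARTA and 81.2% without. None of the 3 tested was called, and the defining genes Mcpt4 and Fcer1a were at 0 in all libraries. Of the NK cell list, 0 of 4 tested genes were called; the sum was 2763 to 3662 CPM with SMARTA and 2724 to 4110 CPM without, and Nkg7, which CD8 T cells express, made up 98.5% of it with SMARTA and 98.4% without, with Klra4 at 0 in all libraries.

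The sums of 2 other marker lists separated the groups, each at the smallest p that 35 splits allow (exact permutation p = 0.0286, adjusted 0.172). CD4 T cell markers summed to 159 to 311 CPM with SMARTA and to 315 to 422 CPM without. Without Tnfrsf4, an activation receptor gene that made up 29.2% of the sum with SMARTA and 78.6% without, the order was the opposite, at 124 to 147 CPM with SMARTA and 38.1 to 94.0 CPM without. Fibroblast and endothelium markers summed to 157 to 222 CPM with SMARTA and to 84.9 to 134 CPM without, of which Pecam1, which leukocytes also express, made up 88.2% with SMARTA and 82.9% without. The other genes of that list summed to 9.35 to 45.6 CPM with SMARTA and 2.25 to 49.97 CPM without. No gene of either list was called, and the part of such cells in the chemokine levels was not tested.

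With replicate 1 with SMARTA and replicate 1 without SMARTA both left out, the libraries richest in erythroid and in neutrophil transcript, all 5 chemokines that fell remained called, with log2 fold changes from −5.09 (Ccl9) to −3.02 (Ccl4) and edgeR adjusted p from 0.0149 to 0.0488. That pair was chosen after the data were seen. In the 7 fits that leave out 1 library the log2 fold change of Ccl3 ran from −4.35 to −3.53, that of Ccl4 from −3.30 to −2.85, that of Ccl9 from −5.04 to −3.98, that of Ccl1 from −4.24 to −3.51 and that of Xcl1 from −3.99 to −3.44. Ccl5 ran from 0.25 to 1.02 and was called in none.

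**Figure D5:**
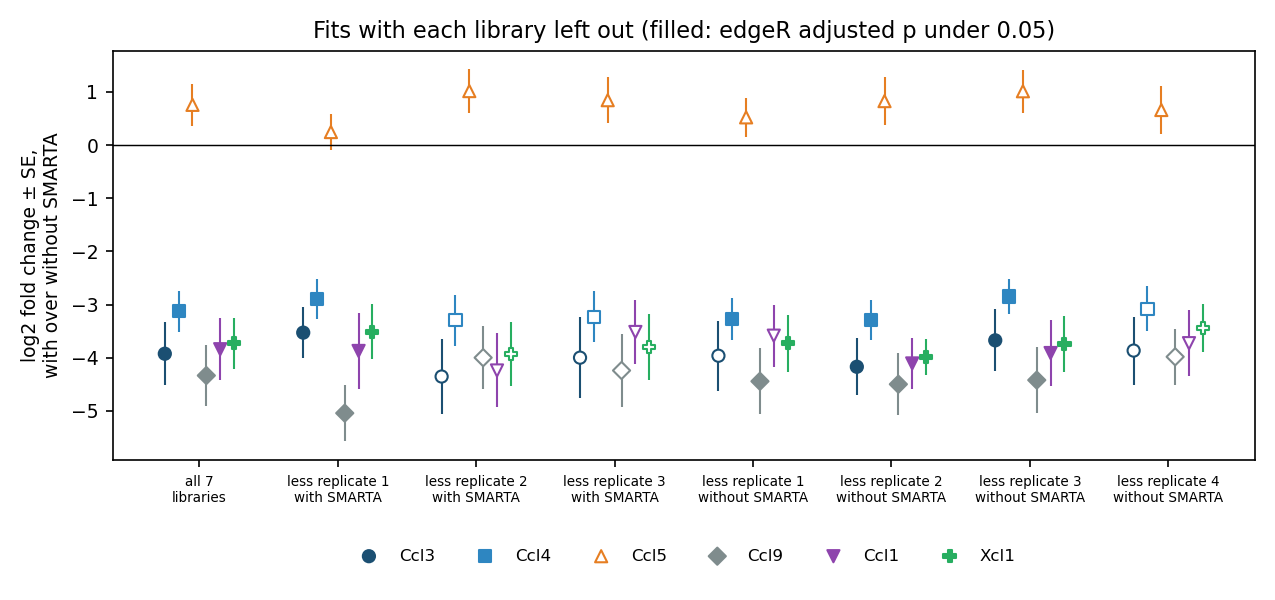
Log2 fold change ± SE of each chemokine, with over without SMARTA, in the fit with all 7 libraries and in the 7 fits with 1 library left out; filled points passed edgeR at an adjusted p under 0.05. Ccl5 lies above 0 in every fit and the other 5 lie between −5.04 and −2.85, with no filled point without replicate 2 or 3 with SMARTA or replicate 4 lacking it.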

How the data were processed

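Read pairs were mapped with STAR 2.6.0c to GRCm38.p6, per the submitters' processing notes. The authors ran featureCounts 1.6.2 on GENCODE M17 exons, grouped by gene name and ignoring strand, per the file headers; defaults leave out reads of several places or genes, and the deposited values are raw counts. Counting error is small at these depths: 3 counts, taken as the floor of a library, correspond to 0.0607 to 0.0788 CPM.

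Samples were grouped by title. With R 4.3.3 and edgeR 4.0.16, all genes passing filterByExpr (minimum count 10, minimum total 15) were fitted with TMM factors in a robust quasi-likelihood model without covariate, and p-values were adjusted over all 15896 genes. CPM are TMM-scaled, and log2 CPM used a prior count of 2. Intervals are 95% intervals from the quasi-likelihood fit. TPM were computed here from counts and deposited exon lengths. The fit was also run on simulated counts as a self-test of the code, and its outcome is not used as a result here. Alternatives were other scalings, filters, DESeq2 1.42.0, limma-voom (limma 3.58.1), a stricter threshold, a replicate block and each library left out.

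Some genes of the lists and neighbourhood are not reported here and do not enter the counts of lists, neighbours or markers. The members and lists were chosen with earlier results of these data known. Genes named beside the members are the receptors, the tested neighbours, up to 4 called members of a list (where it has none, those 2 whose p is smallest) and the 2 nearest in profile; Ccr2 is named outside this rule, after its value was seen, to complete a count. The platelet, B cell, dendritic cell, melanoma and erythroid lists gave adjusted exact permutation p from 0.343 to 0.714. Counts of every pair of libraries within a group differed by 93.5 to 444 chi-square units per degree of freedom, far beyond sampling noise, so none was treated as a duplicate.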

Additional observations from a re-analysis of the deposited data

Results flagged for a closer look

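In the 4 libraries without SMARTA, 51 genes were examined for a single library far from the others; 3 were flagged, all neighbours of the chemokine loci and none a chemokine, and about 1 in 20 is flagged by chance. A gene model on the plus strand between Ccl9 and Ccl3 was at 0.83 CPM in replicate 3 without SMARTA, Taf15 at 13.7 CPM in replicate 2 and RP23-381B19.7 at 0.85 CPM in replicate 1, each above the other 3 libraries of the group.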

How the results depend on the processing

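All 5 chemokines that fell kept their call under relative log expression, upper-quartile and library-total scaling, no filter, a stricter filter, DESeq2, limma-voom and a fit without robust estimation, and no log2 fold change of the 6 changed sign in any fit. At an adjusted p under 0.01 the number of chemokines called lower was 0, with values unchanged at −3.84 (Ccl1), −3.92 (Ccl3), −3.12 (Ccl4), −4.33 (Ccl9) and −3.73 (Xcl1), all 5 at an unadjusted p under 0.05; over all genes 2 were then lower and 5 higher. With the replicate number of the titles as a block 0 chemokines and 0 genes in either direction were called, with values of −3.71 (Ccl1), −3.96 (Ccl3), −3.02 (Ccl4), −4.17 (Ccl9) and −3.38 (Xcl1), all 5 at an unadjusted p under 0.05 and with adjusted p of 0.326 to 0.329. The titles do not say whether these numbers pair libraries. Deviations from the group means correlated at −0.139, 0.0263 and −0.274 between libraries of number 1, 2 and 3. In groups of 3 and 4 libraries such correlations cannot show whether libraries were paired. The names of the deposited files number the libraries with SMARTA from 2 to 4, and by those numbers the correlations were −0.0862, −0.0623 and −0.044.

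Over all genes 259 were called lower and 241 higher; lower calls were 398 with library totals, 491 with the stricter filter and 919 with DESeq2, which called 822 higher. With library totals 29.1% of calls were higher, against 48.2%, and the median over all genes was −0.16 log2 units. With 1 library left out, 7 to 397 genes were called lower and 10 to 510 higher, and 0 to 5 chemokines lower, with log2 fold changes of −4.24 to −3.51 (Ccl1), −4.35 to −3.53 (Ccl3), −3.30 to −2.85 (Ccl4), −5.04 to −3.98 (Ccl9) and −3.99 to −3.44 (Xcl1).

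Shares of the 6-gene sum depended on length. From CPM in place of TPM, Ccl1 held 0.855% with SMARTA and 4.57% without, Ccl9 0.17% and 1.49%, and Ccl4 47.6% without. With the longest coding transcript of GENCODE M21, chosen after seeing the data, Ccl1 held 0.788% with SMARTA and 4.83% without, Ccl4 46.3% without and Ccl5 23.0% without.

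Signs changed for the following neighbours, none of them called in a fit of all libraries. Ap2b1 was at −0.10 with library totals and −0.032 with the stricter filter. RP23-249K18.3 was at −0.14 with library totals, −0.041 with no filter, −0.12 by limma-voom, −0.48 with the block and −1.31 with replicate 1 of both groups left out. Dpt was at −0.70 by limma-voom, −0.84 with the block and −2.19 with both left out, Ccl8 at −0.078 with the block and −1.69 with both left out, and RP23-381B19.7 at 0.23 with both left out. With 1 library left out the ranges were −0.16 to 0.17 (Ap2b1), −2.46 to 0.11 (Ccl6), −0.69 to 0.36 (Ccl7), −1.53 to 1.31 (Ccl8), −2.07 to 0.64 (Dpt), −0.32 to 0.13 (Heatr6), −1.09 to 0.41 (RP23-249K18.3), −0.012 to 0.33 (Sft2d2), −0.20 to 0.51 (Snord7) and −3.31 to 0.19 (Wfdc17). The cause was not tested. With 1 library left out, a permutation test of marker sums cannot reach 0.05 and was not run.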
